A study of Mus musculus with 26 samples.

Results

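The CRISP genes and their relatives encode secreted or membrane-bound proteins of the CAP superfamily, named after cysteine-rich secretory proteins, antigen 5 and pathogenesis-related 1 proteins. The genes described here were chosen by symbol, and all 10 of the 10 listed members (Crisp1, Crisp2, Crisp3, Crisp4, Crispld1, Crispld2, Glipr1, Glipr1l1, Glipr1l2 and Pi15) had a row among the 23337 genes of both count tables. Their mRNA was measured by RNA-seq in the initial segment (IS) of the epididymis, in the caput epididymidis and in the testis of ArKI males and wild-type (WT) males. ArKI is a knock-in at the X-linked androgen receptor gene in which the lysines that accept the modifier SUMO are replaced by arginines in every cell of the body, so effects that begin in other cell types or organs are part of each comparison. The controls were WT littermates of matched age and sex. Mice of both genotypes were 3 months old and of the C57Bl/6N; 129 hybrid strain. There were 5 samples of each genotype for the IS, 5 for the caput and 3 for the testis, 26 in all.

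CRISP proteins consist of a CAP domain followed by a cysteine-rich domain. CRISP1 and CRISP4 are made by epididymal principal cells under androgen control, are secreted into the lumen and coat passing sperm. CRISP2 is made by spermatids and is built into the acrosome and tail, and CRISP3 is known from salivary gland and B cells. The CRISP proteins act on ion channels, among them the sperm calcium channel CatSper, and take part in the binding of sperm to the egg. GLIPR1L1 is a sperm surface protein, whereas CRISPLD1, CRISPLD2 and PI15 are widely expressed secreted CAP proteins.

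Most of the members lie in 3 clusters of the mouse genome (mm10, positions from the GENCODE annotation of that build). On chromosome 17, Crisp3 (chr17:40221777-40242288) and Crisp1 (chr17:40293758-40319207) are neighbours 51469 bases apart on the minus strand, and Crisp2 (chr17:40764020-40807003) follows 444812 bases further on. On chromosome 1, Pi15 (chr1:17601901-17630939), Crispld1 (chr1:17727045-17766344) and Crisp4 (chr1:18115191-18145902) stand in a row with no other RefSeq protein-coding gene between them. On chromosome 10, Glipr1 (chr10:111985448-112002631), Glipr1l1 (chr10:112060189-112078510) and Glipr1l2 (chr10:112083354-112108098) are likewise adjacent. Crispld2 stands alone on chromosome 8 (chr8:119992438-120052793).

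The promoters of Crisp1 and Crisp3 are shown because these neighbours are nearly the same sequence yet were measured at very different levels, and that of Crisp4 is shown because this epididymal gene was lower in ArKI in both segments. Each is the 250 bases before the RefSeq start site, in the GRCm38.p6 assembly, minus strand, 5′ to 3′. Capitals mark the 11 of 250 positions at which Crisp1 (chr17:40319208-40319457) and Crisp3 (chr17:40242289-40242538) differ, and in Crisp4 (chr1:18145903-18146152) the 6 letters TGTTCT found in androgen response elements.
Crisp1: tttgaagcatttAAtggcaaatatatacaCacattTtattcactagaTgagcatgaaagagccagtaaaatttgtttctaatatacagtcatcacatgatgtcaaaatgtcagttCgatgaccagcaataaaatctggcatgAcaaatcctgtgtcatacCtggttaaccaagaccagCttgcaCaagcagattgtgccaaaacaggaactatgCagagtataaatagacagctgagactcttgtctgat
Crisp3: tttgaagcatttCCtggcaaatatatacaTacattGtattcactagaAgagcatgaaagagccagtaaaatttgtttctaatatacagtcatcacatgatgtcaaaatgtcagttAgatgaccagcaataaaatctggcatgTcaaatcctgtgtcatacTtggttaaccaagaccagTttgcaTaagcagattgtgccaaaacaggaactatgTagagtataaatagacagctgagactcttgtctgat
Crisp4: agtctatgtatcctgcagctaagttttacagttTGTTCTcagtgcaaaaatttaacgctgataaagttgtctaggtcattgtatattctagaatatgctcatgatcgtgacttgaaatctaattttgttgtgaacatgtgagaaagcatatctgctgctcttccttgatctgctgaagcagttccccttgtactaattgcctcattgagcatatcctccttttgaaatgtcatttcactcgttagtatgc

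The Crisp1 and Crisp3 promoters were identical at 95.6% of positions, and both held the letters TATAAA at position -31, counted back from the start site. Searched on both strands, TATAAA was found in 12.4%, TGTTCT in 16.1% and the ETS-type letters AGGAAG in 29.5% of 32851 RefSeq promoters of this length. In these windows neither Crisp1 nor Crisp3 held TGTTCT, and Crisp4 held it at position -217 and AGGAAG on the opposite strand at position -91. Promoters of 6 of the 10 members were matched. The longest protein-coding transcripts of Crisp1 and Crisp3 were 88.6% identical over their alignment. Of the 1367 windows of 50 bases in Crisp1 transcripts, 33 (2.41%) also occurred in Crisp3, counting exact matches only. Windows were compared among the 10 members and not with the rest of the genome.

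Total counts ranged from 4125768 to 21376604 per sample, with 5829074 to 9770625 in the IS, 4125768 to 11913469 in the caput and 14077013 to 21376604 in the testis. The lowest total belonged to ArKI caput replicate 2, which also stood apart from its group in Crisp4 and Crispld2. In WT samples the 5 IS principal cell genes summed to between 28574 and 31525 CPM (counts scaled to a common library total) in the IS and to between 864 and 4230 in the caput, and the 18 sperm and spermatid genes summed to between 29163 and 35952 in the testis of both genotypes. The 5 caput principal cell genes summed to between 34869 and 38166 CPM in WT caput but also to between 21009 and 23504 in WT IS, and 3 of them were lower in WT caput than in WT IS, Cst12 the most (34.0 ± 34.5 against 1775 ± 295 CPM), so this list separated the segments poorly. The Sertoli cell list, through Clu, was higher in the caput than in the testis. The androgen receptor gene itself was at 34.4 ± 4.18 CPM in ArKI and 59.0 ± 9.08 in WT IS (mean ± SD, n = 5), and the mutation changes codons rather than the level, so the level does not check the labels. All levels below are CPM scaled with TMM factors over the 26 samples, and CPM per kilobase of exon (RPKM) are used only where genes are compared with each other.

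In WT males the family was divided between the tissues. Per length, Crisp1 made up 81.8 ± 3.36% (SD, n = 5) and Crisp4 17.5 ± 3.22% of the summed RPKM of the 10 genes in WT IS. In WT testis, Crisp2 made up 90.7 ± 0.272% (n = 3), Glipr1l1 6.67 ± 0.210% and Glipr1l2 2.16 ± 0.0945%. In WT caput Crisp4 and Crisp1 together made up most of the sum, but the share of Crisp1 ranged from 5.01% to 71.3% between the 5 samples.

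**Figure D1:**
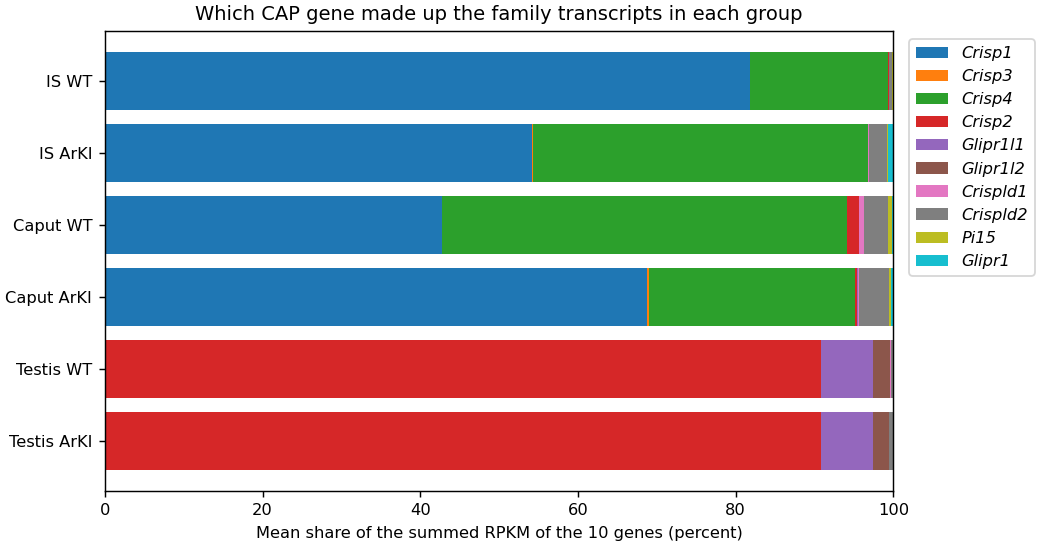
Stacked bars give the mean share, in percent, of each gene in the summed RPKM of the 10 genes for each of the 6 groups (n = 5 for IS and caput, n = 3 for testis). Crisp1 and Crisp4 filled nearly the whole bar in the IS and caput, and Crisp2 with Glipr1l1 and Glipr1l2 in the testis.

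The level of each gene by length gave the same picture. Crisp1 was at 1399 ± 283 RPKM in WT IS, 254 ± 231 in WT caput and 0.899 ± 0.460 in WT testis. Crisp4 was at 291 ± 24, 209 ± 7.51 and 0.0414 ± 0.0358. Crisp2 ran the other way, at 1.05 ± 0.592 RPKM in WT IS, 6.61 ± 1.68 in WT caput and 983 ± 64.4 in WT testis. Next in the WT epididymis came Crispld2, at 5.34 ± 0.437 in IS and 12.7 ± 1.2 in caput. Crispld1 (2.03 ± 0.286 and 2.15 ± 0.308 RPKM in WT IS and caput), Pi15 (1.37 ± 0.218 and 2.04 ± 0.107) and Glipr1 (1.95 ± 0.194 and 0.882 ± 0.439) were lower still. Neighbours in this order such as Crispld1 and Glipr1 in the IS, or Crispld1 and Pi15 in the caput, did not differ beyond their spread.

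**Figure D2:**
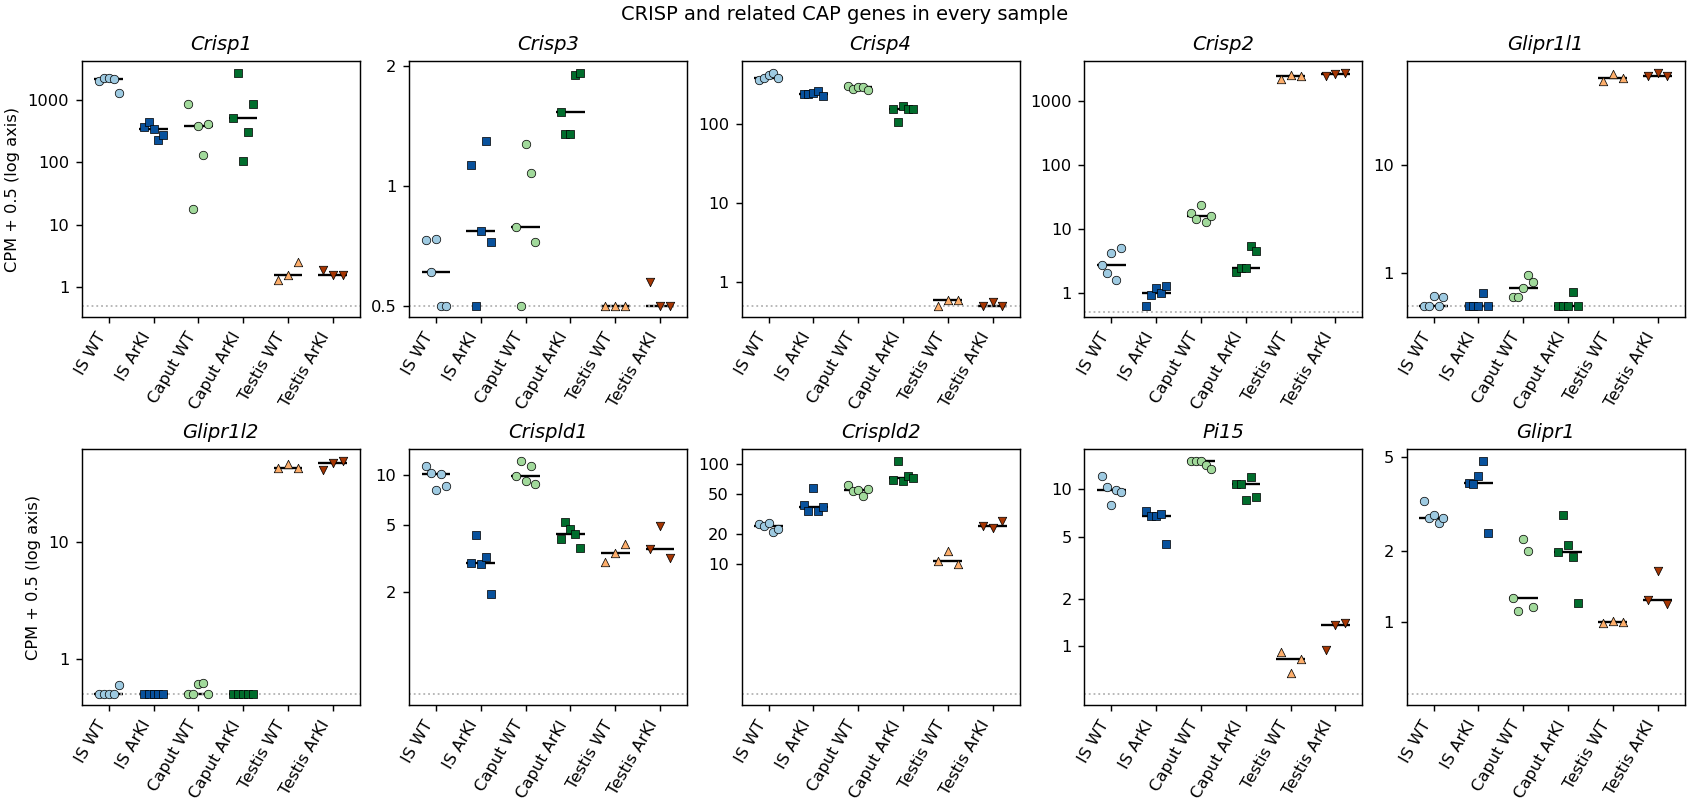
Each point is 1 sample, in CPM plus 0.5 on a log axis, for the 10 genes and the 6 groups; horizontal bars are group medians and the dotted line marks a count of 0. Crisp1 was widely scattered in the caput of both genotypes, from 17.1 to 2731 CPM, whereas Crisp4 formed tight groups that did not overlap between genotypes in either segment.

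Between WT testis and WT IS, 8 of the 10 members were called by edgeR's quasi-likelihood test at a false discovery rate (FDR) below 0.01 and a fold change above 2, beside 69.3% of the 16402 genes tested (38.5% higher and 30.9% lower in the testis). Crisp2, Glipr1l1 and Glipr1l2 were higher in the testis, and Crisp1, Crisp4, Crispld1, Glipr1 and Pi15 were lower. Between WT testis and WT caput the number was also 8, again beside 69.3% of all genes (38.1% higher and 31.2% lower), with Crispld2 in place of Glipr1. Both shares of all genes are large, so the counts of members are read only as a description, and these comparisons share their testis samples. Because testis and epididymis were sequenced in separate batches, batch and tissue cannot be told apart here. The median log2 fold change of all genes between testis and IS was 0.19 with TMM scaling, and -0.22 when only the library size was used.

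Glipr1l1 and Glipr1l2 were close to absent outside the testis. Glipr1l1 had 2 counts in the 5 WT IS samples together and 11 in the 5 WT caput samples, against 2431 in the 3 WT testis samples. Glipr1l2 had 1, 2 and 1675. Crisp4 showed the opposite pattern, with 17463 counts in WT IS, 13430 in WT caput and 2 in WT testis. The IS level of Crisp4 was 7481 times that of the testis, with a 95% counting interval from 2071 to 61775 that covers counting error only.

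Within the WT epididymis, 3 of the 10 members were called between caput and IS (21.6% of 14329 genes tested were called), with 7 of the 10 passing the filter on low counts. Crisp2 was 6.12-fold higher in the caput (log2 fold change 2.61, SE 0.30, adjusted p = 1.62e-07). Of the 18 sperm and spermatid genes, 15 were tested and 14 were called higher there, beside the 21.6% of all genes called in either direction. Their median log2 fold change was 2.22, and their part in the Crisp2 difference was not tested. Crispld2 was 2.39-fold higher in the caput (log2 fold change 1.25, SE 0.15, adjusted p = 7.74e-07). Glipr1 was 2.22-fold lower (log2 fold change -1.15, SE 0.31, adjusted p = 0.00169), at 16 to 24 counts per WT IS sample and 6 to 16 per WT caput sample, and it fell just short of the fold limit when WT caput replicate 2 was left out (log2 fold change -0.99). Crisp4 was 1.39-fold lower in the caput (adjusted p = 9.3e-06) and Pi15 1.49-fold higher (adjusted p = 0.000201), both under the fold limit. Crispld1 differed by 0.09 on the log2 scale (SE 0.15, adjusted p = 0.587).

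Of the 6 members that passed the filter in the IS, Crisp1 had the largest genotype difference. In WT IS its 5 samples had 1976, 2208, 2229, 2206 and 1288 CPM, and in ArKI IS 368, 446, 341, 223 and 274 CPM. Every ArKI sample lay below every WT sample. Crisp1 fell 5.97-fold in ArKI IS, from 1981 ± 401 to 330 ± 86.0 CPM (SD, n = 5 each, log2 fold change -2.58, SE 0.23, adjusted p = 5.78e-05). In bulk tissue, fewer cells of a type and less RNA per cell cannot be told apart. The p-values weigh a difference against the spread between these samples, which is estimated in part from all genes. With all 20 epididymal samples in a single fit, which lets the wide caput scatter enter the estimate of the spread, the log2 fold change was also -2.58 but the adjusted p was 0.0274.

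In the caput, the same gene was scattered in both genotypes. The WT caput samples had 862, 17.1, 388, 128 and 407 CPM of Crisp1, and the ArKI caput samples 508, 2731, 103, 299.9 and 872 CPM. The groups overlapped, and the log2 fold change of 1.33 (SE 1.10, adjusted p = 0.434) dropped to 0.29 without ArKI caput replicate 2 and went up to 1.95 without WT caput replicate 1. Among the 13726 genes tested in the caput, 3 had a larger SD of log2 CPM between the WT samples than Crisp1 (2.19), namely Defb48, Gm14316 and Spint4, and 5 had a larger SD between the ArKI samples than Crisp1 (1.76), namely Chrna2, Cwh43, Gm14316, Gm17365 and Spint4. These gene names were read off after their values were seen. In the IS, by contrast, the SD of Crisp1 was 0.34 in WT and 0.39 in ArKI, with 7.2% and 8.49% of genes more variable.

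The genotype effect on Crisp1 in the caput exceeded that in the IS by 3.90 on the log2 scale (SE 1.15, adjusted p = 0.0292), above the FDR limit of 0.01. DESeq2 gave an adjusted p of 0.0012 for the same difference, and without ArKI caput replicate 2 it was 2.86 (adjusted p = 0.068). No member was called by edgeR for a difference of its genotype effect between the segments, beside 8.18% of all genes, and 2 of the 7 that passed the filter (Crisp1 and Crisp4) had an unadjusted p under 0.05. In WT, Crisp1 was 5.46-fold lower in caput than in IS (log2 fold change -2.45, SE 0.82, adjusted p = 0.0143), short of the FDR limit although the groups did not overlap. This difference passed in DESeq2 (adjusted p = 0.000885), in limma voom (log2 fold change -3.29, adjusted p = 5e-04), without WT caput replicate 1 (-3.06, adjusted p = 0.00604), and without ArKI caput replicate 2 (adjusted p = 0.006) or 3 (adjusted p = 0.00826), whose spread enters the fit.

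The genes that followed Crisp1 most closely were found by Pearson's r of log2(CPM + 0.5). Over all 20 epididymal samples these were Tmem50b (r = 0.86), Parp12 (0.81) and Clic4 (0.80), out of 14328 genes. Over the 10 caput samples alone, a choice made after the scatter of Crisp1 was seen, they were Car4 (r = 0.991, Spearman's rho 0.964), Gpr82 (0.984) and Nlrp9b (0.969). Car4, a membrane-anchored carbonic anhydrase, had 17.5, 0.207, 6.06, 2.54 and 6.42 CPM in WT caput replicates 1 to 5 and 9.62, 43.6, 1.62, 6.75 and 18.8 in ArKI caput replicates 1 to 5. Both genes were thus lowest in WT caput replicate 2 and highest in ArKI caput replicate 2. The r between them was 0.992 within the 5 WT and 0.994 within the 5 ArKI caput samples. Car4 was picked over these same 10 samples, so those values are no separate support, and it had 2 counts in WT caput replicate 2. The r between Crisp1 and Car4 was 0.036 over the 10 IS samples, where Car4 had at most 15 counts. Gpr82 and Nlrp9b had r = -0.958 and -0.846 with Crisp1 there, which rest on the gap between genotypes and on 1 to 2 and 0 to 4 counts per WT IS sample. The points share their libraries and scaling, and no cause of the shared scatter was tested. The IS principal cell genes, by comparison, summed to 864 to 4230 CPM in WT caput and 1009 to 3109 in ArKI caput, with r = -0.55 against Crisp1 over the 10 samples (Spearman's rho -0.76), -0.29 within WT and -0.91 within ArKI. The caput principal cell list gave -0.44 over the 10 samples, 0.54 within WT and -0.94 within ArKI. Over the sums of the marker lists, r with Crisp1 ran from -0.69 for clear cells (-0.96 within WT and -0.78 within ArKI) to 0.75 for the Leydig cell list (0.81 and 0.86), which summed to only 13.1 to 22.6 CPM in the caput. Their part in the scatter of Crisp1 was not tested.

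**Figure D3:**
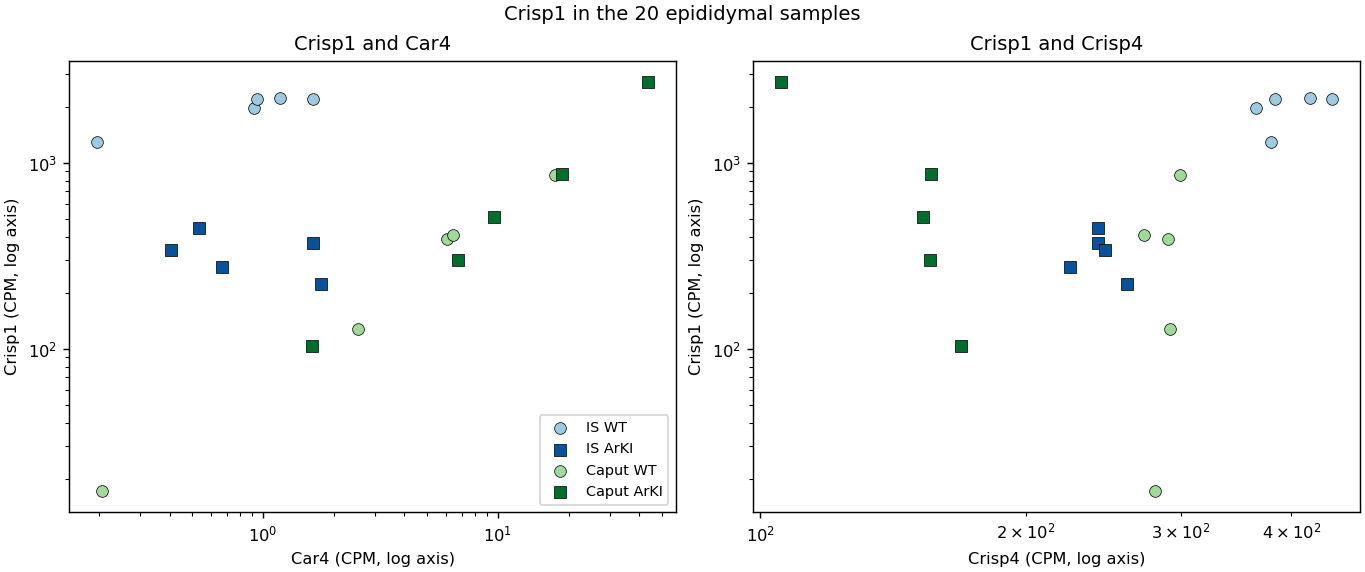
Each point is 1 of the 20 epididymal samples, with Crisp1 CPM on the vertical log axis against Car4 CPM (left) and Crisp4 CPM (right) on horizontal log axes. In the caput Crisp1 and Car4 lay on a line that both genotypes share (r = 0.991 over 10 samples), whereas in the IS Crisp1 separated the genotypes at low Car4 levels, and Crisp4 separated the genotypes in both segments.

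Crisp4 was lower in ArKI in both segments. WT IS samples had 365, 384, 419.9, 445 and 379 CPM and ArKI IS samples 241, 242, 246, 261 and 224. WT caput samples had 299, 281, 289.7, 292 and 273 CPM and ArKI caput samples 153, 106, 169, 156 and 156. The genotypes did not overlap in either segment. Crisp4 was 1.64-fold lower in ArKI IS (log2 fold change -0.71, SE 0.056, adjusted p = 1.25e-08) and 1.95-fold lower in ArKI caput (log2 fold change -0.96, SE 0.090, adjusted p = 2.92e-06), both under the fold limit of 2. Without ArKI caput replicate 2, the lowest sample, the caput value was -0.87 (adjusted p = 2.55e-10), and without ArKI caput replicate 3 it was -1.01 (adjusted p = 2.84e-06) and passed the fold limit. The effects in the segments differed by -0.25 (SE 0.11, adjusted p = 0.131).

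The genes most like Crisp4 over the 20 epididymal samples were Slc30a9, a zinc carrier (r = 0.973), Apod, apolipoprotein D (0.961), and Ssr3, a subunit of the translocon-associated complex (0.960). Here too the points share their libraries, and these r values include the differences between the groups.

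The neighbours of Crisp4 on chromosome 1 were lower in ArKI as well. Crispld1 had 10.8, 9.76, 7.66, 9.52 and 8.05 CPM in WT IS and 2.5, 3.87, 2.44, 2.72 and 1.44 in ArKI IS. In the caput it had 9.26, 11.6, 8.71, 10.7 and 8.30 CPM in WT and 3.67, 4.70, 4.25, 3.95 and 3.17 in ArKI. No ArKI sample reached a WT sample in either segment. Crispld1 fell 3.54-fold in the IS (log2 fold change -1.83, SE 0.20, adjusted p = 7.93e-07) and 2.52-fold in the caput (log2 fold change -1.34, SE 0.14, adjusted p = 2.71e-06), and it was the only member called in both segments. Smooth muscle genes were lower in ArKI IS as well, with sums of 513 to 597 CPM in WT and 224 to 399 in ArKI (all 5 below 0, 2 called lower beside 1.32% of all genes, median log2 fold change -0.98). The 3 endothelial genes summed to 82.3 to 99.6 CPM in WT IS and 57.3 to 68.5 in ArKI IS, with none called by edgeR and all 3 at an unadjusted p under 0.05. The 4 basal cell genes summed to 319.5 to 366 CPM in WT IS and 252 to 278 in ArKI IS, with all 4 below 0, none called by edgeR and 3 at an unadjusted p under 0.05. In the caput the endothelial sums were higher in ArKI instead (33.3 to 36.0 CPM in WT and 40.5 to 60.9 in ArKI, 2 of 3 genes above 0), and those of the basal cell genes overlapped. None of the 5 smooth muscle genes was called in the caput or had an unadjusted p under 0.05 there (sums of 720.0 to 904 CPM in WT and 602 to 1319.8 in ArKI). The sums of the 5 IS principal cell genes overlapped between the genotypes in the IS (28574 to 31525 CPM in WT and 26121 to 30139.8 in ArKI), with none called by edgeR and a median log2 fold change of 0.085 (4 of 5 at an unadjusted p under 0.05). The 5 macrophage genes summed to 105 to 137 CPM in WT IS and 72.3 to 108 in ArKI IS. Of these 5, 3 were below 0 and 2 above, with none called by edgeR, 3 at an unadjusted p under 0.05 and a median log2 fold change of -0.52. In the caput 4 of the 5 were above 0. The part of smooth muscle, endothelial and basal cells and macrophages in the lower Crisp1, Crisp4, Crispld1 and Pi15 of ArKI IS was not tested. In the testis Crispld1 was at 2.94 ± 0.406 CPM in WT and 3.44 ± 0.928 in ArKI (n = 3, adjusted p = 0.717).

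Pi15, a secreted CAP protein named as a peptidase inhibitor, was at 9.46 ± 1.51 CPM in WT IS and 5.93 ± 1.10 in ArKI IS, and at 14.1 ± 0.743 in WT caput and 9.70 ± 1.47 in ArKI caput. The samples of the genotypes did not overlap in either segment, and the change was under the fold limit in both (1.60-fold, adjusted p = 0.00276, and 1.48-fold, adjusted p = 0.000969). Of the genes that flank the row of 3, Defb18, a beta-defensin gene next to Crisp4, overlapped between genotypes in both segments (log2 fold change -0.18, adjusted p = 0.772 in IS, and -1.06, adjusted p = 0.0463 in caput). Gdap1, next to Pi15, went the other way at low counts, with 0 to 4 per sample in WT IS and 6 to 13 in ArKI IS, and 0 to 3 in WT caput and 0 to 15 in ArKI caput. These flanking genes were looked up after the values of the members were seen.

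Crisp2 fell 5.38-fold in ArKI caput. WT caput samples had 17.2, 13.5, 22.8, 12.2 and 15.4 CPM and ArKI caput samples 1.60, 1.92, 1.96, 4.78 and 4.04, with no overlap (log2 fold change -2.43, SE 0.28, adjusted p = 7.31e-05). In the IS its counts were below the filter, with 19, 14, 31, 8 and 46 counts in WT and 1, 3, 5, 3 and 7 in ArKI. Those groups did not overlap either (exact permutation test, two-sided, p = 0.00794, the smallest that 5 against 5 samples allow, and 0.0437 after Benjamini-Hochberg adjustment over 11 such tests), and with 118 counts in WT and 19 in ArKI the level scaled for depth was 5.37 times higher in WT (counting interval 3.29 to 9.24). In the testis, its main site, Crisp2 had 2231, 2524 and 2479 CPM in WT and 2484, 2653 and 2752 in ArKI, with overlap (log2 fold change 0.10, SE 0.061, adjusted p = 0.523).

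Sperm and spermatid genes were lower together with Crisp2 in ArKI caput. There 15 of the 18 were tested, all 15 were below 0 and 13 were called lower, beside 2.55% of all genes, among them Akap4, a sheath protein of the tail (log2 fold change -3.63), and Prm1, a protamine (-3.34), with a median log2 fold change of -2.16 against 0.0017 for all genes. Their summed CPM was 271 to 422 in WT caput and 43.6 to 119 in ArKI caput, and 15.8 to 90.0 in WT IS and 5.74 to 9.98 in ArKI IS. In the IS only 3 of the 18 passed the filter, of which Prm2 (log2 fold change -4.11) and Odf1 (-2.46) fell, beside 1.32% of all genes called lower, and Zpbp was at 0.02 (adjusted p = 0.953). All 18 were tested in the testis and none was called by edgeR (median 0.068, with 1 at an unadjusted p under 0.05).

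Set against the summed sperm and spermatid genes, Crisp2 amounted to 7.39 ± 0.291% of their CPM in WT testis (SD, n = 3) and 7.56 ± 0.757% in ArKI testis. In WT IS and WT caput it amounted to 5.15 ± 0.955% and 5.10 ± 0.672% (n = 5). ArKI IS gave 6.45 ± 3.10% and ArKI caput 3.67 ± 0.718%. This proportion, examined after the levels had been seen, was lower in ArKI caput than in WT caput (exact permutation test, two-sided, p = 0.0159, 0.0477 after adjustment over 3 tissues), and p was 0.683 in the IS and 0.9 in the testis, where 3 against 3 samples cannot give an exact p below 0.1. Whether the tissues differed in this genotype effect was not tested. The sum gives most weight to its highest genes. In the caput, mean Odf1 went from 47.2 CPM in WT to 21.3 in ArKI and Smcp from 48.6 to 21.1, while Prm2 went from 83.9 to 9.15. The log2 fold change of Crisp2 itself was -2.43, near the median of -2.16 of the 15 genes tested. The lower proportion depends on which genes enter the sum and does not show that Crisp2 fell beyond the sperm genes.

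**Figure D4:**
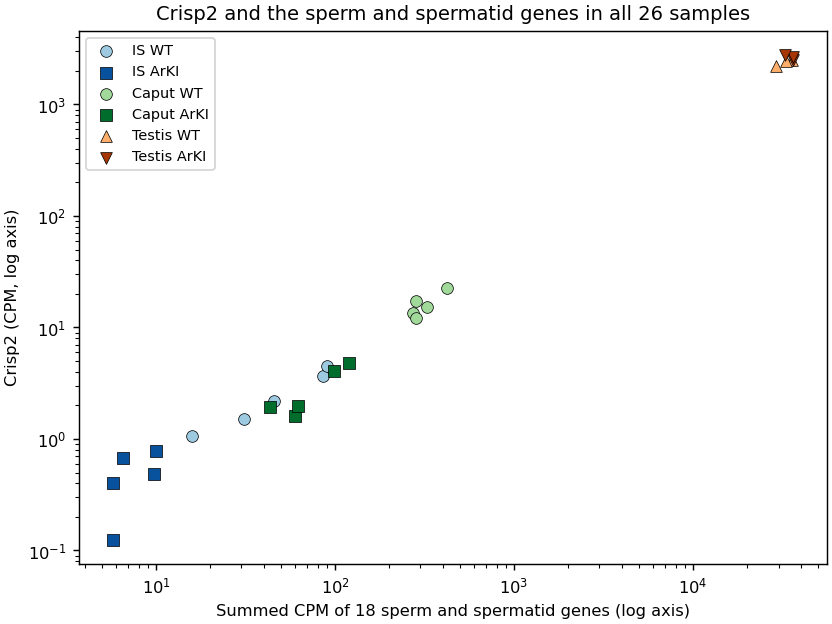
Each point is 1 of the 26 samples, with Crisp2 CPM against the summed CPM of 18 sperm and spermatid genes, both on log axes. ArKI caput samples (43.6 to 119 on the horizontal axis) lay below WT caput samples (271 to 422) on both axes, and all 6 testis samples lay together at the top right.

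The genes most like Crisp2 over the 26 samples were 1700009N14Rik, Atp8b3 and Fhl4 (r = 0.998 each), and those most like Glipr1l1 were 4933402J10Rik, Spaca4 and Fam71a (r = 0.999 each), values that rest mainly on the gap between testis and epididymis. Glipr1l1 was at 64.7 ± 4.93 CPM in WT testis and 68.7 ± 2.59 in ArKI testis (log2 fold change 0.06, SE 0.072, adjusted p = 0.772). Glipr1l2 was at 44.5 ± 2.21 and 46.4 ± 4.64 (log2 fold change 0.04, SE 0.082, adjusted p = 0.9). In the caput, where the sperm genes were lower in ArKI, Glipr1l1 had 11 counts in the 5 WT samples and 2 in the 5 ArKI samples (exact permutation p = 0.0238, 0.0873 after adjustment).

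Crisp3 was at 0.0810 ± 0.0821 RPKM in WT IS and 0.262 ± 0.214 in WT caput and was listed at 0 in all 3 WT testis samples. It did not pass the filter in any tissue. WT caput samples had 3, 0, 7, 5 and 2 counts and ArKI caput samples 9, 4, 10, 17 and 18. As CPM, the lowest ArKI sample (0.851) was above the highest WT sample (0.772), the permutation p was 0.00794 (0.0437 after adjustment over 11 tests) and the summed level was 3.20 times higher in ArKI (counting interval 1.84 to 5.86). In the IS there were 5 counts in WT and 14 in ArKI (exact permutation p = 0.151), and in the testis 0 and 1, where 0 counts in a sample allow a level of up to 0.172 to 0.258 CPM. Counts of Crisp3 came to 0.0977% of those of Crisp1 in WT caput, 0.175% in ArKI caput, 0.00581% in WT IS and 0.111% in ArKI IS. Only uniquely mapped reads were counted, which leaves out reads from the shared 50-base windows, and in WT IS 86042 counts of Crisp1 went with 5 of Crisp3.

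Crispld2, a paralog of Crispld1, was higher in ArKI in all 3 tissues. In the testis WT samples had 10.3, 13 and 9.38 CPM and ArKI samples 23.2, 22.4 and 26.6, with no overlap. It rose 2.17-fold (log2 fold change 1.12, SE 0.12, adjusted p = 1.88e-06). Crispld2 was the 1 member of 10 called in the testis, at the limits of FDR below 0.2 and fold change above 2 that called 0.833% of 15838 genes there (0.751% higher), and 6 of the 10 members had passed the filter. It was also 1.73-fold higher in ArKI IS (23.0 ± 1.88 to 39.7 ± 9.84 CPM, adjusted p = 0.00128) and 1.40-fold higher in ArKI caput (54.7 ± 5.19 to 78.0 ± 16.8, adjusted p = 0.0255). No ArKI sample reached down to a WT sample in the IS or caput, but the sizes were under the fold limit, and the caput p was above 0.01 though it became 0.000472 (log2 fold change 0.36) without ArKI caput replicate 2.

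Sums of fibroblast and Leydig cell markers were higher in ArKI testis, as Crispld2 was. There, the 5 fibroblast genes summed to 126 to 139 CPM in WT and 163 to 175 in ArKI, and the 4 Leydig cell genes to 553 to 708 in WT and 938 to 993 in ArKI. None of these 9 genes was called by edgeR, since none passed the fold limit, but Col1a1, Col1a2, Cyp17a1 and Cyp11a1 had an adjusted p below 0.2 (0.00575 or less). All 5 fibroblast genes and 3 of the 4 Leydig cell genes had a log2 fold change above 0, with medians of 0.12 and 0.31. Macrophage sums (32.9 to 36.6 CPM in WT and 37.3 to 41.1 in ArKI) and smooth muscle sums (127 to 128 and 132.0 to 152) were also higher in ArKI testis without overlap, the latter with a median log2 fold change of 0.0066 over its 5 genes. The fibroblast sum was 1014 to 1130 CPM in WT IS and 1081 to 1379 in ArKI IS, and 658 to 729 in WT caput and 787 to 1766 in ArKI caput, where the highest value again belonged to replicate 2. In each segment 4 of the 5 were above 0, and Pdgfra was lower in ArKI (507 ± 22.5 to 431 ± 22.2 CPM in IS and 85.9 ± 22.5 to 62.3 ± 15.1 in caput). Their part in the Crispld2 result was not tested.

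Glipr1, a p53-responsive CAP gene also found in myeloid cells, was low in all 3 tissues. It was at 2.36 ± 0.234 CPM in WT IS and 3.32 ± 0.892 in ArKI IS (adjusted p = 0.122), and at 1.06 ± 0.530 in WT caput and 1.51 ± 0.584 in ArKI caput (adjusted p = 0.446). In the testis it had 19 counts in WT and 40 in ArKI, and Pi15 had 12 and 34. Scaled for depth, the ArKI level was 1.76 times that of WT for Glipr1 (counting interval 0.99 to 3.21) and 2.36 times for Pi15 (1.19 to 5.02). For both genes the exact permutation p was 0.1, the smallest that 3 against 3 samples allow, so that this design cannot reach 0.05. The 5 macrophage genes summed to 105 to 137 CPM in WT IS and 72.3 to 108 in ArKI IS, 65.5 to 84.8 in WT caput and 72.1 to 96.1 in ArKI caput, and 32.9 to 36.6 in WT testis and 37.3 to 41.1 in ArKI testis. In the testis, where Glipr1 had more counts in ArKI, 4 of these 5 genes were above 0 (median log2 fold change 0.24), with none called by edgeR and 3 at an unadjusted p under 0.05. Their part in the Glipr1 values was not tested.

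Counted over the 10 members, 2 were called in the IS (Crisp1 and Crispld1, both lower in ArKI), where 4.04% of 13434 genes were called (1.32% lower) and 6 members had passed the filter. In the caput 2 were called (Crisp2 and Crispld1, both lower), where 4.98% of 13726 genes were called (2.55% lower) and 7 members had passed. Without the fold limit, 5 members passed in the IS (Crisp1, Crisp4, Crispld1 and Pi15 lower, Crispld2 higher), where 9.48% of genes were lower and 9.35% higher at this FDR, and 4 in the caput (Crisp2, Crisp4, Crispld1 and Pi15, all lower), where 9.36% of genes were lower. The genotypes did not overlap for 5 of the members that passed the filter in each segment, where the share of all genes was 20.2% (IS) and 19.9% (caput). Per the methods of the study, IS and caput came from the same 5 mice of each genotype, so the segments are not independent, and the labels do not say which samples share a mouse.

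**Figure D5:**
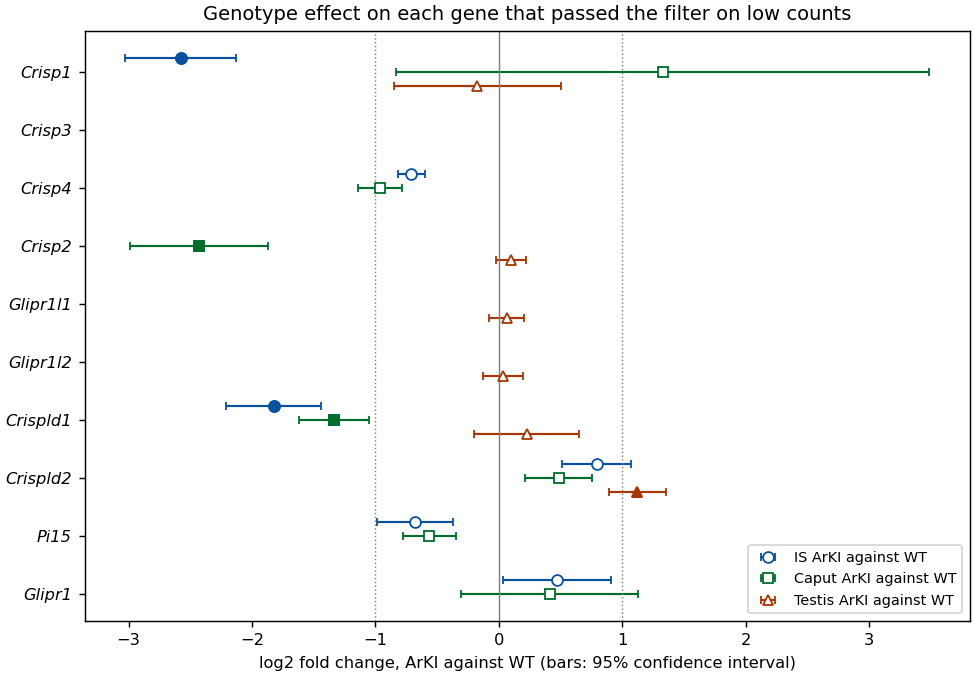
Points give the log2 fold change of ArKI against WT for each gene that passed the filter, in IS (circles), caput (squares) and testis (triangles), with bars of 95% confidence intervals; filled symbols passed both the FDR and the fold limit, which dotted lines mark. Crispld1 was filled in both segments, Crisp1 only in the IS, Crisp2 only in the caput and Crispld2 only in the testis, and the bar of Crisp1 in the caput spanned 0.

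Among the other CAP genes listed beside the members, Clec18a, a secreted lectin with a CAP domain, changed in opposite directions in the segments. It had 16.1, 17.5, 23.3, 13.7 and 15.5 CPM in WT IS and 3.88, 2.80, 3.52, 4.49 and 4.21 in ArKI IS. In the caput it had 1.25, 1.14, 1.54, 0.346 and 2.55 CPM in WT and 12.8, 8.55, 7.15, 11.3 and 10.3 in ArKI. The genotypes did not overlap in either segment, with the order turned round. Clec18a fell 4.53-fold in the IS (log2 fold change -2.18, SE 0.16, adjusted p = 5.21e-09) and rose 7.24-fold in the caput (log2 fold change 2.86, SE 0.29, adjusted p = 5.91e-06), and the difference between the effects was 5.03 (SE 0.33, adjusted p = 5.03e-10). Glipr2 and Pi16 were not called for genotype in any tissue, R3hdml had 0 counts in all samples, and Glipr1l3 was not among the genes with counts under that symbol.

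Of 13 genes listed as partners of CRISP proteins, mostly subunits of the CatSper channel, 7 were tested in the caput, 6 of them were below 0, and 2 fell (2.55% of all genes were called lower), Catsper3 (log2 fold change -2.89, adjusted p = 2.17e-05) and Ggn, a germ cell protein (log2 fold change -1.54, adjusted p = 0.00159). The median of the 7 was -0.20 against 0.0017 for all genes. Both are mainly testis genes, at 84.5 ± 10.7 and 717 ± 22.3 CPM in WT testis against 1.97 ± 0.536 and 3.02 ± 1.6 in WT caput, and they were lower in ArKI caput together with the sperm and spermatid genes (median -2.16). The part of those cells in this result was not tested. In the IS 5 were tested and none was called by edgeR (median -0.11, with 3 at an unadjusted p under 0.05), and in the testis all 13 were tested and none was called (median -0.034, with 1 at an unadjusted p under 0.05). In the testis these genes summed to 2199 to 2351 CPM in WT and 2162 to 2319 in ArKI.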

How the data were processed

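RNA from dissected, flash-frozen tissue was sequenced as 50-base single-end reads. The authors mapped the reads to mm10 with STAR and deposited raw counts of uniquely mapped reads per RefSeq gene, made with Subread (version 1.5.1 in the submitters' processing notes). Whether counting used strand is not given in the sources used here. Epididymis and testis came in separate tables and sequencing batches.

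The counts were fitted as deposited with edgeR 4.0.16 (quasi-likelihood test with robust dispersion, TMM scaling, filterByExpr with a minimum count of 10, Benjamini-Hochberg adjustment) in R 4.3.3, over all genes of each comparison. Calls needed an FDR below 0.01 (testis 0.2) and a fold change above 2, the limits of the study, and the difference of the genotype effects needed the FDR alone. SE are on the log2 scale. RPKM used merged exons of GENCODE protein-coding transcripts. Members that failed the filter were compared by exact two-sided permutation tests of log2(CPM + 0.5), adjusted over 11 tests. Counting intervals (95%) and floors of 3 counts cover counting error only. The fit was tested on simulated data. DESeq2 1.42.0, limma voom (limma 3.58.1), other scalings and filters, a replicate block and leaving out each sample were tried as alternatives.

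The members and gene lists were chosen with earlier results of these data known. Genes named as most alike were the 3 with the highest Pearson's r. Replicate numbers were shared between groups, but the labels do not say what they mark.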

Additional observations from a re-analysis of the deposited data

Results flagged for a closer look

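Of 44 groups of 5 samples examined, 6 held a sample far from the others by Dixon's criterion, where about 2.2 would be flagged by chance (about 1 in 20 groups). The ratio of gap to range was 0.731 for Crisp1 in WT IS replicate 5 (1288 CPM, nearest 1976) and 0.746 for Crisp4 in ArKI caput replicate 2 (106 CPM, nearest 153). For Crispld2 it was 0.778 in ArKI IS replicate 3 (56.9 CPM, nearest 38.6) and 0.788 in ArKI caput replicate 2 (107 CPM, nearest 75.2). For Pi15 it was 0.809 in ArKI IS replicate 5 (3.99 CPM, nearest 6.23), and for Glipr2 0.78 in WT caput replicate 5 (6.75 CPM, nearest 8.69).

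The genotype effect on Clec18a differed between caput and IS by 5.03 on the log2 scale, tested as the interaction term in edgeR (adjusted p = 5.03e-10).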

How the results depend on the processing

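Of the single-gene values, 556 kept their direction and side of the limits under the alternatives other than leaving out a sample, 16 passed limits they had missed, 3 no longer passed and 4 reversed. A replicate block called 2 members in the IS, 2 in the caput, 1 in the testis, 3 between WT caput and WT IS, 9 between testis and IS, 8 between testis and caput and 0 for the difference of genotype effects. Deviations of same-numbered samples had r from -0.094 to 0.202 between genotypes in the IS and from -0.0090 to 0.182 between WT IS and WT caput, where 3 of 5 pairs were over 0.1 and 3 of 5 samples correlated best with their own number (2 of 5 between ArKI IS and ArKI caput, 2 of 5 in the IS, 1 of 5 in the caput and 2 of 3 in the testis). The segments came from the same mice, but nothing says that a number marks a mouse, and the numbers were not taken to pair the samples.

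Without the fold limit, 5 members were called in the IS and 4 in the caput. Requiring 10 counts in every sample, which tests fewer genes, left 1 called in the caput, 1 between WT caput and WT IS, 2 between testis and IS and 3 between testis and caput. Over all genes this filter called 350 in place of 543 in the IS, 311 in place of 683 in the caput, 75 in place of 132 in the testis, 1757 in place of 3096 between WT caput and WT IS, 6864 in place of 11374 between testis and IS and 6853 in place of 11363 between testis and caput. Without the fold limit the counts over all genes were 2529, 2468 and 846 in IS, caput and testis. DESeq2 called 1 member (Crisp1) for the difference of genotype effects, and the cause was not tested. In limma voom Crisp1 missed the FDR limit between testis and IS (adjusted p = 0.0289) and between testis and caput (adjusted p = 0.119).

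Values near 0 changed sign. Glipr2 in the testis was 0.0076 with library size only and 0.011 with the replicate block, and in limma voom the difference of genotype effects was 0.0050 for Glipr1 and -0.036 for Pi16. With each sample left out in turn, testis values ranged from -0.46 to 0.31 for Crisp1, -0.021 to 0.37 for Crispld1, -0.018 to 0.10 for Glipr1l2, -0.14 to 0.095 for Glipr2 and -0.18 to 0.088 for Pi16. Differences of genotype effects ranged from -0.39 to 0.20 for Crisp2, -0.23 to 0.19 for Glipr1, -0.017 to 0.18 for Pi15 and -0.13 to 0.46 for Pi16. Members called ranged from 2 to 3 in the IS, 2 to 3 in the caput, 1 to 1 in the testis, 2 to 4 between WT caput and WT IS and 8 to 9 between the testis and either segment.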
